A study of Mus musculus with 12 samples.

Results

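The programme described here is the differentiation of control C2C12 cells, taken as the 3 D2 siControl libraries against the 3 D0 siControl libraries, 6 of the 12 libraries of the series. C2C12 is a mouse myoblast line. All 6 received a non-targeting siRNA (ON-TARGETplus). The D0 siControl cells were undifferentiated myoblasts kept below confluence in medium with 10% fetal bovine serum and harvested 48 h after the siRNA. The D2 siControl cells were differentiating myocytes. Their medium was replaced 24 h after the siRNA by one holding 2% horse serum, and they were harvested 48 h after differentiation began. Day, medium, density and time since the siRNA therefore changed together and cannot be told apart. The other 6 libraries, 3 at each day, received a siRNA against Kctd10 and serve here for the estimate of the spread and for 1 comparison of the siRNA arms.

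Abundance was measured by poly(A) RNA sequencing and is given as TPM, the share of a fixed total that is scaled for transcript length, summed over the transcripts of a gene. Of 25732 genes matched, 13070 reached 1 TPM in at least 3 libraries and were tested. The siControl libraries held an estimated 12.51 to 15.21 read pairs in units of 1000000 and 12016 to 12485 genes at 1 TPM or more, and Kctd10 lay between 257.9 and 289.0 TPM in all 6. The muscle label was checked on its markers. Myod1, the myogenic transcription factor of myoblasts, had 75.4, 74.2 and 75.9 TPM at D0 and 254, 240.1 and 241 TPM at D2. Des, the muscle intermediate filament, had 247, 269 and 264 TPM at D0 and 849, 838 and 888 TPM at D2, and Myog, a regulator of differentiation, had 14.3, 11.8 and 10.1 TPM at D0 and 364, 314 and 292 TPM at D2. Muscle creatine kinase, Ckm, was listed at 0 in the 3 D0 libraries and at 34.6, 39.2 and 47.4 TPM at D2. Nothing in the labels says that replicates were separate cultures, so the p-values measure the spread between these libraries, which may be technical.

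Myoblasts leave the cell cycle when serum growth factors are withdrawn, switch on a contractile programme under MyoD and myogenin, and fuse into multinucleated fibres. Insulin-like growth factor signals act in an autocrine way in this step, the surrounding matrix is rebuilt, and the growth machinery of the dividing cell is turned down. The description below goes beyond the contractile proteins and the cell cycle genes.

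A total of 4636 genes passed the threshold (35.5% of those tested; limma, adjusted p under 0.05), of which 2803 were higher at D2 (21.4%) and 1833 lower (14.0%). The groups did not overlap for 6838 genes (52.3%), and 4589 of the 4636 called genes were among these. Of the called genes, 209 belonged to the sarcomere or cell cycle lists, whose size, 64 and 218 members tested, limits that count. In these lists 58 sarcomere members were higher and 150 cell cycle members lower. The other 4427 called genes lay outside them, 2744 higher and 1683 lower. The median log2 fold change over all genes tested was 0.09. Changes of single genes are given in log2 units of TPM + 1 with their standard error after ±. Median-ratio scaling gave 2434 higher and 2252 lower genes (51.9% higher against 60.5% in the fit reported) and quantile normalization 2216 and 2312 (48.9%), with medians over all genes of 0.005 and -0.033. In the lists below, counts are therefore read against 21.4% higher and 14.0% lower and medians against 0.09. The cell cycle transcripts summed to 19670 to 21040 TPM at D0 and 9009 to 10110 TPM at D2. The sarcomere transcripts summed to 1395 to 1442 TPM at D0 and 8384 to 9012 TPM at D2. Because TPM is a share of a fixed total, 1000000 in each library, a fall in some genes raises the shares of others and a rise lowers them. How far these 2 sums moved the other shares was not tested. Fewer cells expressing a gene and less RNA per cell cannot be told apart in bulk RNA.

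**Figure D1:**
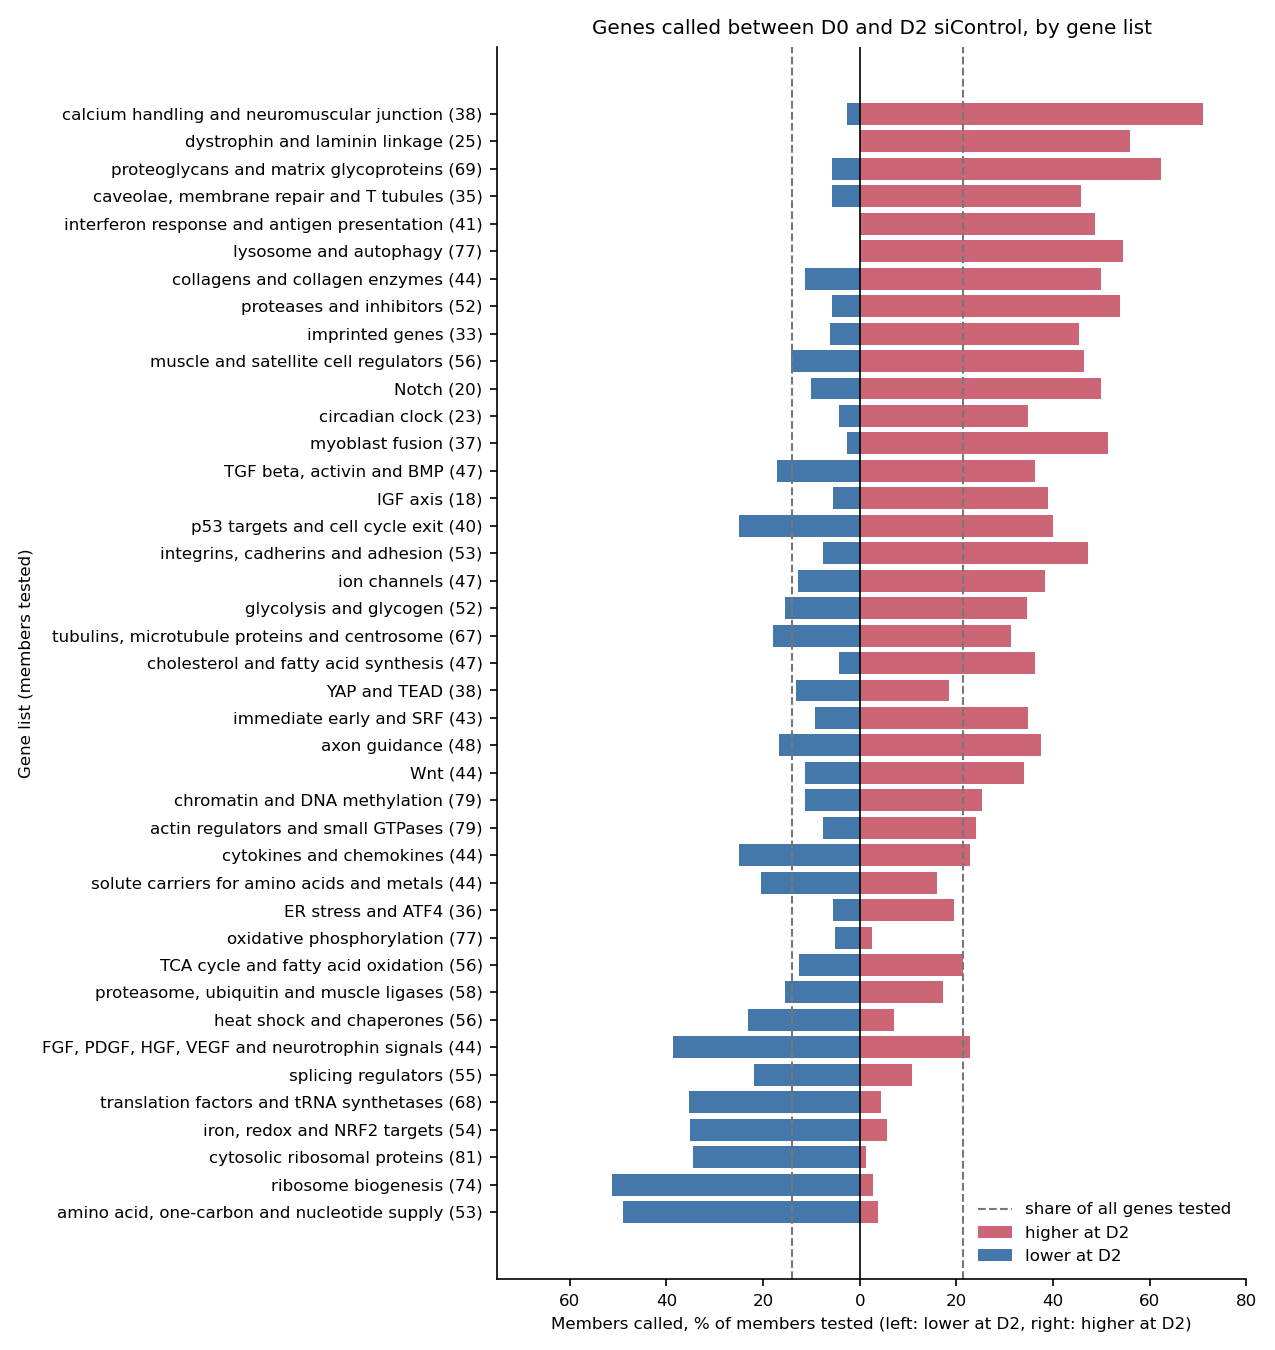
Share of the tested members of each gene list called higher (right) or lower (left) at D2 against D0 siControl, with the number tested in brackets and dashed lines at the shares of all 13070 genes, 21.4% and 14.0%. Lists are ordered by median log2 fold change, from calcium handling and neuromuscular junction at the top to amino acid, one-carbon and nucleotide supply at the bottom.

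The promoters of the rising genes were examined first, since MyoD and myogenin bind E-box sequences and 1 such E-box, CAGCTG, marks many muscle genes. RefSeq windows of 300 bases (250 before to 50 after the start, GRCm38.p6) were found for 10031 of the 13070 genes, and 9135 lay within 500 bases of the start of the gene's most abundant transcript. CAGCTG, which reads the same on both strands, stood in 14.8% of all 9135 windows (1351), in 21.5% of those of genes called higher (409 of 1900), in 11.1% of those of genes called lower (143 of 1292) and in 35.2% of those of genes called higher by a log2 fold change of at least 2 (75 of 213). Without the sarcomere and cell cycle genes the last share was 34.6% (62 of 179). By size of change, the share was 14.4% below a log2 fold change of -2, 15.6% from -2 to -1, 9.37% from -1 to -0.5, 11.9% from -0.5 to 0, 13.2% from 0 to 0.5, 19.1% from 0.5 to 1, 23.5% from 1 to 2, 28.3% from 2 to 3 and 37.0% above 3. The share was thus lowest among small falls and near that of all windows among the larger ones. The median GC content fell from 61.3% over all windows to 57.7% in those 179 windows, and its part in the shares was not tested.

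**Figure D2:**
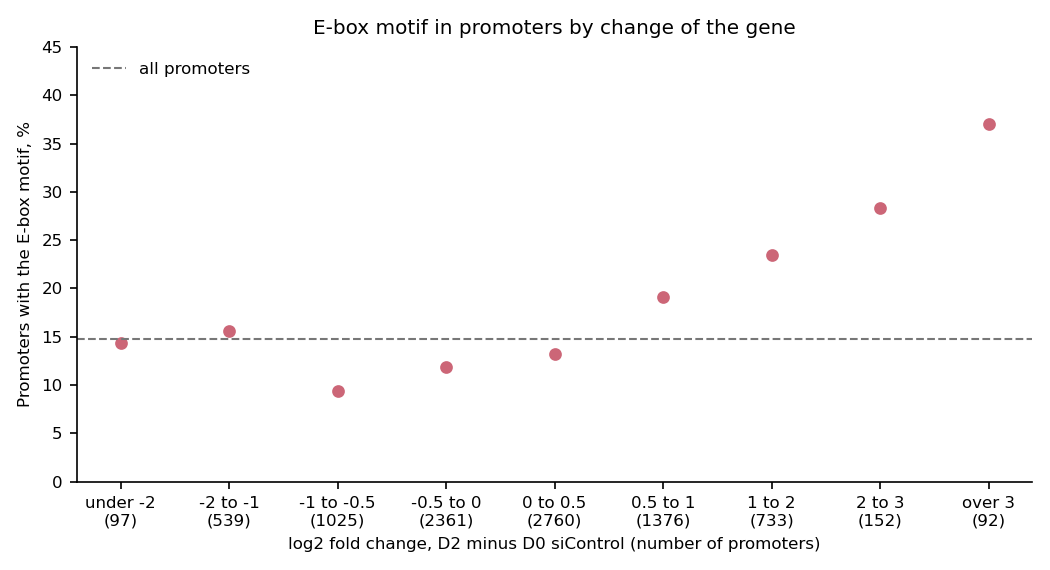
Share of promoter windows that hold the E-box, in bins of log2 fold change from D0 to D2 siControl, with the number of windows in brackets and a dashed line at 14.8%, the share of all windows. The share is highest, 37.0%, above a log2 fold change of 3.

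A second E-box, CAGGTG, was found on either strand in 16.2% of all windows and in 24.4% of windows of the genes called higher by at least 2. The TEAD motif CATTCC was found in 11.6% and 19.7%, the CArG box bound by SRF in 1.36% and 3.29%, and the MEF2 site in 0.416% and 3.29%. The same window can hold CAGCTG and another motif, and such windows were not counted apart.

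Among the genes named by size of change, 5 windows with 2 copies of CAGCTG are printed, chosen after their values were seen. Of these genes 4 rose and 1, Cldn15, fell, so that copies of the word stand on both sides of the programme. Each line gives a gene and its window in lower case from 5′ to 3′ on the gene's strand, which is + for all 5, with CAGCTG in capitals.
Chrng: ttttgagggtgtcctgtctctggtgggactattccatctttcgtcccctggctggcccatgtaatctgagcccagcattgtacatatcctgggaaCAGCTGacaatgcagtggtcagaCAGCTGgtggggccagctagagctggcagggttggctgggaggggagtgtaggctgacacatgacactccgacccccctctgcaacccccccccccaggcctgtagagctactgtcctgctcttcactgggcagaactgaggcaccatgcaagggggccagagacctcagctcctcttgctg
Srpk3: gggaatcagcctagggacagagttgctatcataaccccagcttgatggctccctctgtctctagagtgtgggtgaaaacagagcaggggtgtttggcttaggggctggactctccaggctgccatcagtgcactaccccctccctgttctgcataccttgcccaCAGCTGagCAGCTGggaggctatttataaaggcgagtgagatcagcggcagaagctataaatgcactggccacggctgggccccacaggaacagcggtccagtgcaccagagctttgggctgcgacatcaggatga
Pygm: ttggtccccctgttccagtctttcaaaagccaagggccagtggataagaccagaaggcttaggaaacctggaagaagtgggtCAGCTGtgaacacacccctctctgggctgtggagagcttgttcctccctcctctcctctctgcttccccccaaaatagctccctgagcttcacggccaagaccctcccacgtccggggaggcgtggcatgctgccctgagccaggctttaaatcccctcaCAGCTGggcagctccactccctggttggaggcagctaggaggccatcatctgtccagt
Selenop: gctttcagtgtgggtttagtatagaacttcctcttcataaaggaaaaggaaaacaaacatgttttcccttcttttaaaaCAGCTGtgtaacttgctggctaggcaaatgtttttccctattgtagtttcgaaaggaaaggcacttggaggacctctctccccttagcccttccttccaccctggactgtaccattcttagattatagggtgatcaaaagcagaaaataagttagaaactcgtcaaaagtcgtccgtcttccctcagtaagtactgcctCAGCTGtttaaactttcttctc
Cldn15: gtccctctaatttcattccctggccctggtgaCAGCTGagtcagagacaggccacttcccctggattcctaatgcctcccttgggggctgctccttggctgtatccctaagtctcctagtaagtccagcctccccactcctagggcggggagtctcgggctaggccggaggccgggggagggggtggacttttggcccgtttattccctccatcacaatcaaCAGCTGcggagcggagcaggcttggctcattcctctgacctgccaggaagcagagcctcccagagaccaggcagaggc
The windows lie at chr1:87205561-87205860 (Chrng), chrX:73774155-73774454 (Srpk3), chr19:6384158-6384457 (Pygm), chr15:3270561-3270860 (Selenop) and chr5:136967619-136967918 (Cldn15). Counted from the transcript start at 0, the copies begin at -155 and -132 in Chrng, at -86 and -78 in Srpk3, at -168 and -8 in Pygm, at -171 and 28 in Selenop, and at -218 and -28 in Cldn15.

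Chrng, the gamma subunit of the fetal acetylcholine receptor, had 4.37, 4.8 and 4 TPM at D0 and 215, 224 and 319.8 TPM at D2. Chrng rose by 5.54 ± 0.17 log2 units (adjusted p = 3.24e-08). Srpk3, a muscle protein kinase of splicing factors, was listed at 0 in all D0 libraries and had 6.65, 6.65 and 6.86 TPM at D2 (adjusted p = 8.38e-08). Pygm, muscle glycogen phosphorylase, had 0, 0.693 and 0.303 TPM at D0 and 8.64, 8.63 and 11.5 TPM at D2. Pygm rose by 3.01 ± 0.23 log2 units (adjusted p = 6.4e-06). Selenop, which carries selenium, had 1.19, 1.55 and 1.47 TPM at D0 and 20.9, 22.9 and 26.2 TPM at D2. Selenop rose by 3.34 ± 0.13 log2 units (adjusted p = 7.07e-08). The groups did not overlap for any of the 4. Cldn15, a tight junction claudin, had 21.7, 29.6 and 31.6 TPM at D0 and 3.18, 5.72 and 4.56 TPM at D2. Cldn15 fell by 2.39 ± 0.20 log2 units (adjusted p = 9.18e-06). Every D2 library of Cldn15 lay below every D0 library.

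In the insulin-like growth factor list, 7 of 18 members tested rose and 1 fell, with a median log2 fold change of 0.39, and its members summed to 2668 to 2835 TPM at D0 and 6925 to 7192 TPM at D2. The ligand Igf2 had 1.88, 1.58 and 1.95 TPM at D0 and 23.6, 29.7 and 33.2 TPM at D2. Igf2 rose by 3.40 ± 0.19 log2 units (adjusted p = 8.24e-07). Igf1, the other ligand, had 1.44, 1.09 and 1.29 TPM at D0 and 8.22, 4.9 and 5.62 TPM at D2. Igf1 rose by 1.65 ± 0.33 log2 units (adjusted p = 0.00309). The binding proteins carried most of the list's transcripts: Igfbp5 had 1574, 1456 and 1703 TPM at D0 and 4997, 5216 and 4985 TPM at D2. Igfbp5 rose by 1.69 ± 0.06 log2 units (adjusted p = 7.27e-08). Igfbp4 had 36.2, 32 and 31.6 TPM at D0 and 398, 418 and 415 TPM at D2. Igfbp4 rose by 3.59 ± 0.21 log2 units (adjusted p = 1.15e-06). All D2 libraries lay above all D0 libraries in these 4 genes. The receptor Igf1r, with 10.8, 11.2 and 11.7 TPM at D0 and 16.8, 23.5 and 18.1 TPM at D2, did not pass the test (adjusted p = 0.259), although its D2 libraries lay above its D0 libraries.

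**Figure D3:**
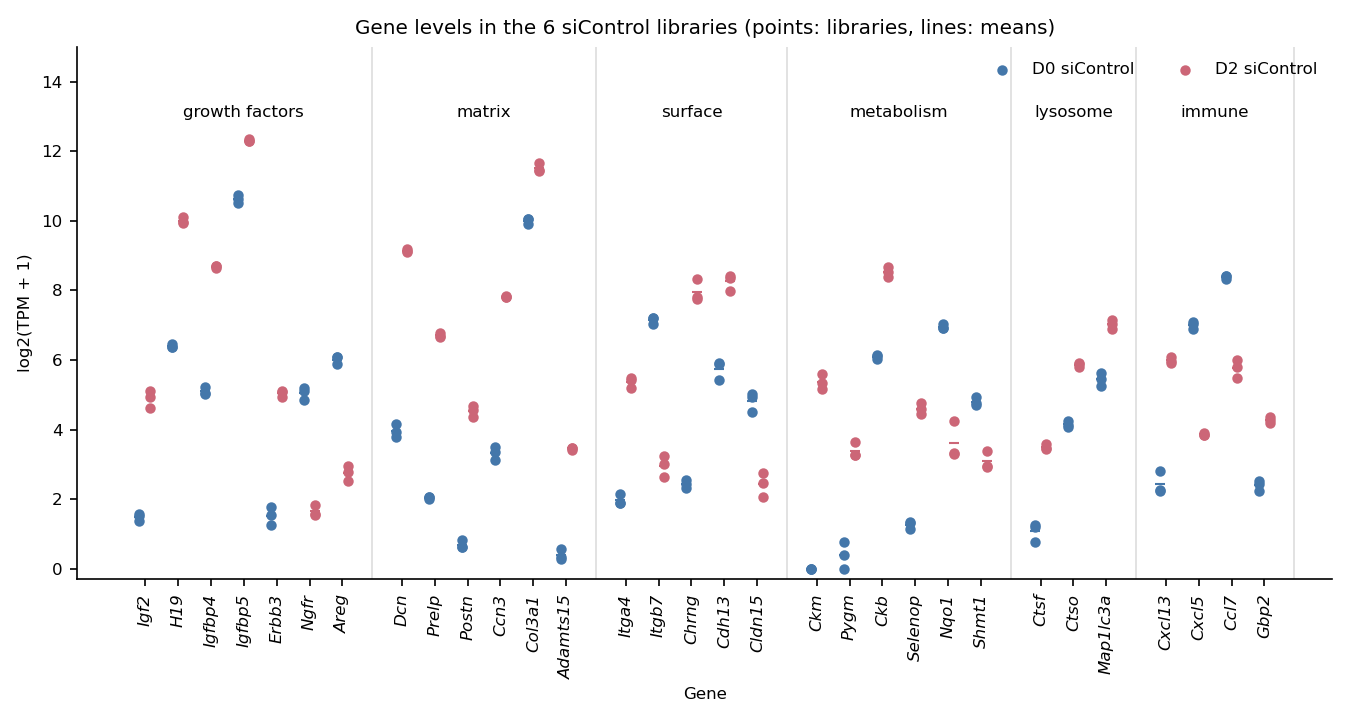
Levels of named genes in the 6 siControl libraries as log2(TPM + 1), in groups by role, with each library a point and each group mean a line. Igf2, H19, Dcn and Itga4 lie higher at D2 in all libraries, and Ngfr, Itgb7, Nqo1 and Cxcl5 lower.

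Igf2 and its neighbour H19, a noncoding RNA, are imprinted, that is, expressed from 1 parental copy. H19 had 82.8, 82.8 and 87 TPM at D0 and 972, 1109 and 1008 TPM at D2. H19 rose by 3.59 ± 0.09 log2 units (adjusted p = 1.16e-08). Across imprinted genes 15 of 33 members tested rose and 2 fell, with a median log2 fold change of 0.53, and they summed to 2214 to 2265 TPM at D0 and 4616 to 4844 TPM at D2. Mest had 30.8, 9.33 and 33.7 TPM at D0 and 63.3, 76.8 and 75.9 TPM at D2. Mest rose by 1.69 ± 0.39 log2 units (adjusted p = 0.00767). Of the D0 libraries of Mest, 1 lay well below the others. The growth inhibitor Cdkn1c had 2.21, 2.88 and 3.18 TPM at D0 and 9.71, 8.93 and 10.1 TPM at D2 (adjusted p = 0.000438). The Dlk1 and Meg3 domain was near 0: Dlk1 and Mirg were listed at 0 in all 6 libraries, Meg3 reached at most 0.0264 TPM and Rian at most 0.0893 TPM.

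Among growth factor signals of the receptor tyrosine kinase and neurotrophin families 10 of 44 members tested rose and 17 fell, with a median log2 fold change of -0.21. The share that rose was near that of all genes, and the share that fell was above it. Ngfr, a receptor shared by the neurotrophins, had 27.9, 33.5 and 35.3 TPM at D0 and 2.54, 1.95 and 1.93 TPM at D2. Ngfr fell by 3.40 ± 0.15 log2 units (adjusted p = 1.42e-07). Areg, a ligand of the EGF receptor, had 57.8, 66.5 and 66.7 TPM at D0 and 5.85, 6.72 and 4.73 TPM at D2. Areg fell by 3.26 ± 0.13 log2 units (adjusted p = 9.76e-08). Erbb3, which binds neuregulins, went the other way, with 2.42, 1.93 and 1.37 TPM at D0 and 33.7, 33 and 29.5 TPM at D2. Erbb3 rose by 3.52 ± 0.21 log2 units (adjusted p = 9.94e-07). Dusp9, a phosphatase of MAP kinases outside the list, had 45.2, 47.9 and 50.6 TPM at D0 and 8.55, 6.73 and 7.14 TPM at D2. Dusp9 fell by 2.53 ± 0.11 log2 units (adjusted p = 1.74e-07).

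In the TGF beta, activin and BMP list 17 of 47 members tested rose and 8 fell, with a median log2 fold change of 0.39. Among the BMP co-receptors and antagonists, hemojuvelin (listed as Hfe2) had 0.838, 1.44 and 0.78 TPM at D0 and 44.8, 40.5 and 36.2 TPM at D2. Hfe2 rose by 4.37 ± 0.20 log2 units (adjusted p = 1.77e-07). Its relative Rgma had 19.8, 15.1 and 18.9 TPM at D0 and 87, 82.9 and 83 TPM at D2. Rgma rose by 2.18 ± 0.43 log2 units (adjusted p = 0.00304). The antagonist Chrd had 0.88, 0.412 and 1.36 TPM at D0 and 9.81, 7.67 and 9.14 TPM at D2. Chrd rose by 2.41 ± 0.20 log2 units (adjusted p = 9.72e-06). The activin antagonist Fst had 36.2, 36.6 and 44.1 TPM at D0 and 93.5, 92.9 and 87.4 TPM at D2. Fst rose by 1.21 ± 0.12 log2 units (adjusted p = 3.58e-05). The 3 Id genes, which encode inhibitors of MyoD dimerization and are known BMP targets, all fell: the log2 fold changes were -1.35 ± 0.15 for Id1, -0.99 ± 0.11 for Id2 and -0.91 ± 0.15 for Id3 (SE). Id3 had 571, 592 and 538 TPM at D0 and 315, 270.0 and 318 TPM at D2, the highest level of the 3. Myostatin, Mstn, was listed at 0 in 5 of the 6 libraries and at 0.111 TPM in the other, and was not tested.

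In the Wnt list 15 of 44 members tested rose and 5 fell, with a median log2 fold change of 0.16; under quantile normalization 9 fell in place of 5. The rises included Nkd2, an inhibitor of Dishevelled, with 0.666, 0.514 and 0.229 TPM at D0 and 13.2, 14.6 and 14.3 TPM at D2. Nkd2 rose by 3.36 ± 0.18 log2 units (adjusted p = 5.37e-07). Porcn, the acyltransferase that lipidates Wnt proteins, had 2.91, 2.68 and 2.29 TPM at D0 and 23.4, 19.5 and 21.7 TPM at D2. Porcn rose by 2.64 ± 0.16 log2 units (adjusted p = 1.12e-06). The secreted antagonist Sfrp2 had 8.35, 9.07 and 9.2 TPM at D0 and 34.8, 29.9 and 33.9 TPM at D2. Sfrp2 rose by 1.78 ± 0.11 log2 units (adjusted p = 1.5e-06). Lgr6, a receptor of R-spondins, fell, with 35, 32.3 and 36.2 TPM at D0 and 3.13, 5.65 and 3.74 TPM at D2. Lgr6 fell by 2.81 ± 0.18 log2 units (adjusted p = 1.55e-06). In the Notch list 10 of 20 members tested rose and 2 fell, with a median log2 fold change of 0.50. The receptor Notch3 had 62.2, 53.3 and 51.2 TPM at D0 and 220.4, 232 and 218 TPM at D2 and the target gene Hey1 8.3, 5.29 and 8 TPM at D0 and 33.3, 38.3 and 38.4 TPM at D2, with log2 fold changes of 1.99 ± 0.10 and 2.22 ± 0.17 (SE).

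Matrix genes rose in several families. Among proteoglycans and matrix glycoproteins 43 of 69 members tested rose and 4 fell, with a median log2 fold change of 0.77. Among proteases and their inhibitors 28 of 52 members tested rose and 3 fell, with a median log2 fold change of 0.57. Among collagens and collagen enzymes 22 of 44 members tested rose and 5 fell, with a median log2 fold change of 0.62. Prelp, a small leucine-rich proteoglycan, had 3.14, 3.03 and 3.16 TPM at D0 and 100.4, 103 and 109.7 TPM at D2. Prelp rose by 4.68 ± 0.14 log2 units (adjusted p = 3.1e-08). Ccn3, a matricellular protein, had 7.73, 9.31 and 10.4 TPM at D0 and 224, 223 and 227 TPM at D2. Ccn3 rose by 4.48 ± 0.12 log2 units (adjusted p = 1.25e-08). Periostin, Postn, had 0.526, 0.536 and 0.759 TPM at D0 and 22.6, 24.4 and 19.4 TPM at D2. Postn rose by 3.85 ± 0.14 log2 units (adjusted p = 6.07e-08). The most abundant fibrillar chain named was Col3a1, with 969, 1063 and 1062 TPM at D0 and 2794, 2847 and 3242 TPM at D2. Col3a1 rose by 1.52 ± 0.10 log2 units (adjusted p = 1.5e-06). In each of these genes the lowest D2 library was above the highest D0 library.

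Enzymes that cut the matrix rose beside it. Adamts15, a protease of large proteoglycans, had 0.488, 0.266 and 0.225 TPM at D0 and 10.2, 9.69 and 10.1 TPM at D2. Adamts15 rose by 3.05 ± 0.13 log2 units (adjusted p = 1.09e-07). Adamts4, of the same family, had 8.45, 5.25 and 4.87 TPM at D0 and 45, 45.2 and 38.1 TPM at D2. Adamts4 rose by 2.64 ± 0.24 log2 units (adjusted p = 1.74e-05). Mmp15, a membrane-bound metalloprotease, had 2.15, 1.99 and 2.91 TPM at D0 and 36.5, 35.1 and 35.2 TPM at D2. Mmp15 rose by 3.46 ± 0.17 log2 units (adjusted p = 3.32e-07). The inhibitor Serping1, of the complement C1 proteases, had 4.94, 4.69 and 4.35 TPM at D0 and 49.8, 64.2 and 67.1 TPM at D2. Serping1 rose by 3.43 ± 0.17 log2 units (adjusted p = 4.08e-07). The list summed to 4291 to 4792 TPM at D0 and 7000 to 7653 TPM at D2.

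Fibroblasts share much of this matrix programme, and some of their markers rose with it. Of 16 fibroblast and fibro-adipogenic markers 12 were tested, 7 rose and none fell. Among the rises, Col1a1 and Col3a1 also belong to the collagen list. Osr1, Smoc2, Pdgfrb and Ly6a were tested and had values that overlapped between the days. The list summed to between 1740 and 1800 TPM at D0 and between 4100 and 5260 TPM at D2, most of it Col3a1. Pi16 had 1.21, 0.291 and 0.501 TPM at D0 and 14, 12.9 and 12.3 TPM at D2, Lum 0, 0 and 0.119 TPM at D0 and 10.2, 6.4 and 9.15 TPM at D2 and Dpt 0.746, 0.457 and 0.43 TPM at D0 and 8.43, 6.4 and 7.07 TPM at D2, while Dpp4 and Tcf21 stayed under 0.1 TPM in every library. Of 13 smooth muscle markers 11 were tested, 7 rose and none fell. Des, used above as a muscle marker, Ldb3, Pdlim3 and Synpo2 were among the rises and also belong to the sarcomere list. The smooth muscle markers summed to 1840 to 1860 TPM at D0 and 3590 to 3840 TPM at D2, with Myh11 under 0.1 TPM in every library. The part of fibroblast-like or smooth muscle-like cells in the matrix rise was not tested.

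At the cell surface, 25 of 53 members tested rose and 4 fell, with a median log2 fold change of 0.34 among integrins, cadherins and adhesion proteins. The integrin chains alpha 4 and beta 7, which can pair in 1 receptor, moved apart: Itga4 had 2.73, 2.71 and 3.47 TPM at D0 and 35.6, 43.9 and 41.7 TPM at D2. Itga4 rose by 3.38 ± 0.14 log2 units (adjusted p = 1.04e-07). Itgb7 had 131, 148 and 146 TPM at D0 and 8.47, 5.24 and 7.1 TPM at D2. Itgb7 fell by 4.19 ± 0.15 log2 units (adjusted p = 4.57e-08). The collagen-binding chain Itga10 had 2.35, 1.5 and 0.817 TPM at D0 and 20.7, 33.2 and 28.1 TPM at D2. Itga10 rose by 3.49 ± 0.32 log2 units (adjusted p = 2.16e-05). T-cadherin, Cdh13, had 42, 58.1 and 58.9 TPM at D0 and 254, 342 and 329 TPM at D2. Cdh13 rose by 2.52 ± 0.20 log2 units (adjusted p = 7.23e-06). Sema3c, a secreted guidance cue, had 6.83, 8.68 and 10.5 TPM at D0 and 104, 97.3 and 102 TPM at D2. Sema3c rose by 3.42 ± 0.41 log2 units (adjusted p = 0.000138). In its guidance list 18 of 48 members tested rose and 8 fell, with a median log2 fold change of 0.16. Without D0 replicate 3, or without D2 replicate 1, 5 guidance genes fell in place of 8.

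In the link from the membrane to the laminin matrix 14 of 25 members tested rose and 0 fell, with a median log2 fold change of 0.78. Under median-ratio scaling or quantile normalization 2 members fell, and 1 did with voom and without D0 replicate 3 or D2 replicate 2. The laminin chain Lama2 had 2.78, 2.57 and 2.33 TPM at D0 and 14, 14.2 and 15.8 TPM at D2. Lama2 rose by 2.14 ± 0.11 log2 units (adjusted p = 4.08e-07). In the list of caveolae, membrane repair and T tubules 16 of 35 members tested rose and 2 fell, with a median log2 fold change of 0.73. Trim72, a membrane repair protein, had 0.146, 0.798 and 0.671 TPM at D0 and 21.6, 20.8 and 19 TPM at D2. Trim72 rose by 3.83 ± 0.31 log2 units (adjusted p = 8.41e-06). The sum of this list was 10600 to 11480 TPM at D0 and 10620 to 11680 TPM at D2. Calcium handling and the neuromuscular junction had the highest share of rises of the lists outside the sarcomere: 27 of 38 members tested rose and 1 fell, with a median log2 fold change of 1.24. The calcium pump Atp2a1 had 1.92, 2.24 and 2.33 TPM at D0 and 110.3, 94.8 and 93.8 TPM at D2. Atp2a1 rose by 4.99 ± 0.21 log2 units (adjusted p = 1.04e-07). The calcium-binding protein Hrc of the sarcoplasmic reticulum had 0.34, 0.574 and 0.546 TPM at D0 and 22.2, 23.4 and 23.9 TPM at D2. Hrc rose by 4.02 ± 0.19 log2 units (adjusted p = 2.63e-07). The muscle sodium channel Scn4a had 0.0502, 0.0892 and 0.0427 TPM at D0 and 9.24, 8.83 and 8.06 TPM at D2. Scn4a rose by 3.19 ± 0.10 log2 units (adjusted p = 3.1e-08).

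Among energy genes, several muscle isozymes rose. In glycolysis and glycogen 18 of 52 members tested rose and 8 fell, with a median log2 fold change of 0.28, and the list summed to 6386 to 7084 TPM at D0 and 6189 to 6526 TPM at D2. Pgam2, the muscle phosphoglycerate mutase, had 2.45, 0.831 and 1.73 TPM at D0 and 28.8, 26.2 and 21.4 TPM at D2. Pgam2 rose by 3.35 ± 0.28 log2 units (adjusted p = 1.09e-05). Ckb, the brain-type creatine kinase, had 67.8, 70.1 and 64.3 TPM at D0 and 411, 372 and 334 TPM at D2. Ckb rose by 2.44 ± 0.13 log2 units (adjusted p = 4.49e-07). For oxidative phosphorylation 2 of 77 members tested rose and 4 fell, with a median log2 fold change of -0.04, both shares below those of all genes. Its members summed to 12580 to 13780 TPM at D0 and 11740 to 12340 TPM at D2. Leaving out 1 siControl library gave 1 to 3 rises and 0 to 3 falls, with 0 falls without D0 replicate 1. The coactivator of mitochondrial genes Ppargc1a was higher in every D2 library than in every D0 library. It reached at most 0.713 TPM, and it was not tested.

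More genes of lipid synthesis rose than fell: 17 of 47 members tested rose and 2 fell, with a median log2 fold change of 0.24, and the summed level was 6936 to 7452 TPM at D0 and 9534 to 10280 TPM at D2. Scd1, a fatty acid desaturase, had 539, 557 and 596 TPM at D0 and 1690, 1824 and 1890 TPM at D2. Scd1 rose by 1.67 ± 0.07 log2 units (adjusted p = 1.71e-07). Fdft1, which makes squalene, had 48.6, 49.9 and 44.8 TPM at D0 and 86.1, 93 and 94.1 TPM at D2. Fdft1 rose by 0.92 ± 0.08 log2 units (adjusted p = 1.8e-05). Pparg, the adipocyte regulator, fell, with 16, 19.8 and 14.6 TPM at D0 and 4.87, 4.4 and 5.71 TPM at D2. Pparg fell by 1.57 ± 0.16 log2 units (adjusted p = 3.5e-05). Of 14 adipocyte markers 7, Adipoq and Plin1 among them, stayed under 0.1 TPM in all libraries. Of the 6 tested, Dgat2 rose (0.84 log2 units, adjusted p = 0.00533) and Pparg and Plin4 fell, and the list summed to 157 to 213 TPM at D0 and 223 to 263 TPM at D2, most of it Car3, which did not pass the test (adjusted p = 0.0632).

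For amino acid, one-carbon and nucleotide supply 2 of 53 members tested rose and 26 fell, with a median log2 fold change of -0.71, and the list summed to 5052 to 5389 TPM at D0 and 3166 to 3688 TPM at D2. In the list of solute carriers for amino acids and metals 7 of 44 members tested rose and 9 fell, with a median log2 fold change of 0.04, and the sum was 2981 to 3055 TPM at D0 and 3212 to 3653 TPM at D2. That median lay below the 0.09 of all genes. It also did under median-ratio scaling (-0.053 against 0.005) and quantile normalization (-0.077 against -0.033). Without D0 replicate 3, 5 members fell. In folate metabolism Shmt1 had 24.9, 25.9 and 29.4 TPM at D0 and 6.59, 6.68 and 9.53 TPM at D2. Shmt1 fell by 1.70 ± 0.15 log2 units (adjusted p = 1.27e-05). Aldh1l2 had 48.8, 48.9 and 62.5 TPM at D0 and 15.7, 16.7 and 18.5 TPM at D2. Aldh1l2 fell by 1.59 ± 0.11 log2 units (adjusted p = 3.23e-06). Odc1, the first enzyme of polyamine synthesis, had 95.6, 102 and 82 TPM at D0 and 27.2, 32.8 and 30.0 TPM at D2. Odc1 fell by 1.60 ± 0.15 log2 units (adjusted p = 1.86e-05). In iron, redox and NRF2 targets 3 of 54 members tested rose and 19 fell, with a median log2 fold change of -0.38. The quinone reductase Nqo1 had 119, 121 and 129 TPM at D0 and 17.8, 8.8 and 9.03 TPM at D2. Nqo1 fell by 3.34 ± 0.31 log2 units (adjusted p = 2.3e-05). Gsr, glutathione reductase, had 107, 124 and 71.3 TPM at D0 and 22.1, 21.1 and 29.3 TPM at D2. Gsr fell by 1.99 ± 0.35 log2 units (adjusted p = 0.00149). Txnip, which inhibits thioredoxin, rose, with 44.2, 47.9 and 41.1 TPM at D0 and 219, 231 and 221 TPM at D2. Txnip rose by 2.31 ± 0.09 log2 units (adjusted p = 7.31e-08). The iron exporter Slc40a1, counted among the solute carriers and not in the iron list, had 7.68, 5.08 and 5.19 TPM at D0 and 39.6, 45.4 and 49.1 TPM at D2. Slc40a1 rose by 2.73 ± 0.15 log2 units (adjusted p = 7.7e-07).

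**Figure D4:**
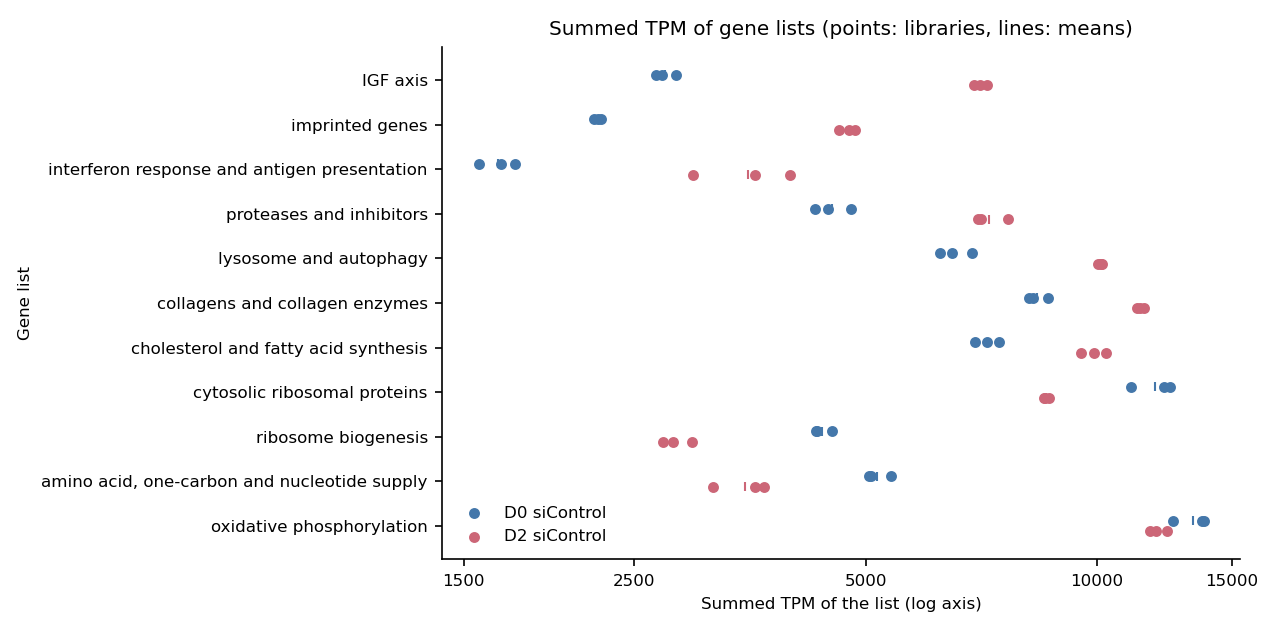
Summed TPM of gene lists in each siControl library on a log axis, with each library a point and each group mean a line. The IGF axis went from between 2668 and 2835 TPM at D0 to between 6925 and 7192 TPM at D2, and ribosome biogenesis went from between 4307 and 4517 TPM to between 2724 and 2973 TPM.

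Genes for making ribosomes fell. For ribosome biogenesis 2 of 74 members tested rose and 38 fell, with a median log2 fold change of -0.69. For cytosolic ribosomal proteins 1 of 81 members tested rose and 28 fell, with a median log2 fold change of -0.48. For translation factors and tRNA synthetases 3 of 68 members tested rose and 24 fell, with a median log2 fold change of -0.36. Fewer fell when 1 siControl library was left out. The falls were then 29 to 33 in ribosome biogenesis, 19 to 23 in ribosomal proteins and 18 to 23 in translation factors and tRNA synthetases. Calls for the ribosomal proteins Rpl27, Rpl36a, Rpl7a and Rps19 were each lost under some alternative. Dkc1, a pseudouridine synthase, had 75.3, 84.1 and 70.7 TPM at D0 and 22.5, 25.4 and 24.2 TPM at D2. Dkc1 fell by 1.63 ± 0.09 log2 units (adjusted p = 8.04e-07). Nop56, a core protein of box C/D particles, had 149.5, 159.9 and 124 TPM at D0 and 46.6, 55.6 and 50.3 TPM at D2. Nop56 fell by 1.48 ± 0.12 log2 units (adjusted p = 8.81e-06). Nucleolin, Ncl, had 217, 242 and 247 TPM at D0 and 95, 108 and 103 TPM at D2. Ncl fell by 1.20 ± 0.36 log2 units (adjusted p = 0.0258). The call for Ncl was lost in all 6 fits that left out 1 siControl library (adjusted p up to 0.0696). Fibrillarin, Fbl, was listed at 0 in all D2 libraries and had 16.8, 1.97 and 13.9 TPM at D0, which for a gene of every cell may be a failed estimate, and its call was lost without D0 replicate 1 or 3 (adjusted p up to 0.059). Mxi1, an antagonist of MYC, had 1.02, 1.2 and 20.5 TPM at D0 and 43.4, 42.3 and 43.4 TPM at D2. Mxi1 rose by 3.27 ± 0.73 log2 units (adjusted p = 0.0061). Myc itself, with 50.4, 57.2 and 52 TPM at D0 and 43.7, 41 and 40.6 TPM at D2, did not pass the test (adjusted p = 0.177).

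Among lysosome and autophagy genes 42 of 77 members tested rose and 0 fell, with a median log2 fold change of 0.63, and they summed to 6244 to 6869 TPM at D0 and 10030 to 10140 TPM at D2. Under quantile normalization 1 fell. The cathepsin Ctso had 16.4, 15.9 and 17.9 TPM at D0 and 54.4, 57.6 and 58.8 TPM at D2. Ctso rose by 1.71 ± 0.10 log2 units (adjusted p = 1.28e-06). Ctsf had 0.716, 1.39 and 1.29 TPM at D0 and 9.95, 10.1 and 10.9 TPM at D2. Ctsf rose by 2.42 ± 0.18 log2 units (adjusted p = 4.25e-06). Ulk1, the kinase that starts autophagy, had 3.92, 3.95 and 3.44 TPM at D0 and 10.9, 15.5 and 16 TPM at D2. Ulk1 rose by 1.65 ± 0.25 log2 units (adjusted p = 0.000646). Map1lc3a, a membrane protein of autophagosomes, had 48.4, 43.1 and 37 TPM at D0 and 141, 131 and 118 TPM at D2. Map1lc3a rose by 1.59 ± 0.15 log2 units (adjusted p = 2.55e-05). Cathepsin L, Ctsl, at 599, 499 and 528 TPM at D0 and 599, 647 and 562 TPM at D2, overlapped between the days and did not pass the test (adjusted p = 0.491). Among heat shock proteins and chaperones 4 of 56 members tested rose and 13 fell, with a median log2 fold change of -0.15. The mitochondrial chaperonin Hspd1 had 331, 429.8 and 409.9 TPM at D0 and 107, 126 and 124 TPM at D2. Hspd1 fell by 1.70 ± 0.11 log2 units (adjusted p = 1.86e-06).

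Regulators of cell cycle exit and transcription were mixed. In the list of p53 targets and exit genes 16 of 40 members tested rose and 10 fell, with a median log2 fold change of 0.35. Cdkn1a, the p21 inhibitor of cyclin-dependent kinases, had 98.1, 85.1 and 87.6 TPM at D0 and 274, 221 and 238 TPM at D2. Cdkn1a rose by 1.42 ± 0.10 log2 units (adjusted p = 3.13e-06). Rb1, the retinoblastoma protein, had 62.5, 66.2 and 69.1 TPM at D0 and 154, 167 and 168 TPM at D2. Rb1 rose by 1.29 ± 0.10 log2 units (adjusted p = 5.48e-06). Gadd45a had 26.1, 27.9 and 20.6 TPM at D0 and 202, 186 and 178 TPM at D2. Gadd45a rose by 2.88 ± 0.11 log2 units (adjusted p = 8.41e-08). Smarcd3, a muscle subunit of SWI/SNF complexes, had 3.58, 3.45 and 5.03 TPM at D0 and 25.3, 25.5 and 23.6 TPM at D2. Smarcd3 rose by 2.37 ± 0.36 log2 units (adjusted p = 0.00055). In the chromatin list 20 of 79 members tested rose and 9 fell, with a median log2 fold change of 0.15 and both shares near those of all genes. Neither Sox8 nor Mef2c belongs to the chromatin list. Sox8 had 2.66, 3.5 and 3.79 TPM at D0 and 24.3, 24.1 and 30.9 TPM at D2. Sox8 rose by 2.67 ± 0.15 log2 units (adjusted p = 6.17e-07). Mef2c, a partner of the MyoD family, had 3.3, 3.29 and 4.11 TPM at D0 and 26.3, 17.9 and 18 TPM at D2. Mef2c rose by 2.23 ± 0.23 log2 units (adjusted p = 4.21e-05).

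Early response factors split. Fosl1 had 11.8, 10.8 and 12.6 TPM at D0 and 1.52, 2.48 and 1.7 TPM at D2. Fosl1 fell by 2.14 ± 0.17 log2 units (adjusted p = 6.92e-06). Its relative Fos had 4.43, 4.53 and 3.36 TPM at D0 and 14.2, 16 and 18.3 TPM at D2. Fos rose by 1.75 ± 0.14 log2 units (adjusted p = 8.95e-06). Klf4 had 79.5, 81.1 and 81.7 TPM at D0 and 247, 235 and 238 TPM at D2. Klf4 rose by 1.56 ± 0.09 log2 units (adjusted p = 8.33e-07). In the list of immediate early and SRF genes 15 of 43 members tested rose and 4 fell, with a median log2 fold change of 0.17. In the YAP and TEAD list 7 of 38 members tested rose and 5 fell, with a median log2 fold change of 0.20. Both shares were near those of all genes. Under median-ratio scaling or quantile normalization 6 rose and 6 fell. The target gene Ccn2 had 51.4, 52.5 and 48.1 TPM at D0 and 132, 141 and 134 TPM at D2. Ccn2 rose by 1.40 ± 0.08 log2 units (adjusted p = 5.54e-07). The cofactor Vgll3 had 10.1, 10.8 and 39 TPM at D0 and 77.5, 90.9 and 85.6 TPM at D2. Vgll3 rose by 2.30 ± 0.40 log2 units (adjusted p = 0.00144). D0 replicate 3 of Vgll3 lay between the other D0 libraries and D2. In the circadian list 8 of 23 members tested rose and 1 fell, with a median log2 fold change of 0.47. The member that fell, Timeless, also belongs to the cell cycle list. Under quantile normalization 5 members rose. Bhlhe40 had 59.8, 64.6 and 61.7 TPM at D0 and 149, 152 and 151 TPM at D2. Bhlhe40 rose by 1.27 ± 0.08 log2 units (adjusted p = 1.75e-06).

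Among splicing regulators 6 of 55 members tested rose and 12 fell, with a median log2 fold change of -0.25, so the share that rose was below that of all genes. Without D0 replicate 2 or D2 replicate 2, 7 fell. Rbm24, a muscle splicing factor, had 5.67, 5.76 and 4.81 TPM at D0 and 114, 112 and 108 TPM at D2. Rbm24 rose by 4.13 ± 0.13 log2 units (adjusted p = 3.24e-08). Mbnl3 had 12.6, 36.6 and 42.9 TPM at D0 and 4.57, 6.32 and 4.86 TPM at D2. Mbnl3 fell by 2.19 ± 0.49 log2 units (adjusted p = 0.00627). Ptbp1 and Mbnl1 had overlapping values and did not pass the test (adjusted p = 0.537 and 0.954). Of 5541 genes with 10 TPM or more at both days and several transcripts, 107 (1.93%) had a transcript whose share moved by 20 points or more with no overlap, and of 26 splicing genes chosen for this purpose 1 did. That gene, Pdlim5, named after its values were seen, had the transcript uc008rol.2 at 0% of its TPM in the D0 libraries and at 30.7, 3.57 and 35.8% at D2. In Tpm1, tropomyosin 1, the transcript uc009qfr.2 held 2.2, 1.84 and 1.09% of the gene's TPM at D0 and 8.46, 6.56 and 7.61% at D2 (two-sided exact permutation test, p = 0.1, the smallest that 3 against 3 allows). In Pkm, pyruvate kinase, the share of the main transcript overlapped between the days, while that of uc009pyi.2 was 6.21, 5.28 and 5.75% at D0 and 6.66, 7.3 and 9.85% at D2 (two-sided exact permutation test, p = 0.1).

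In cytokines and chemokines 10 of 44 members tested rose and 11 fell, with a share of rises near that of all genes. The median log2 fold change was 0.08, against 0.09 for all genes. It was -0.015 against 0.005 under median-ratio scaling and -0.1 against -0.033 under quantile normalization. Cxcl13, a B cell chemokine, had 5.99, 3.69 and 3.78 TPM at D0 and 66.6, 61.7 and 59.1 TPM at D2. Cxcl13 rose by 3.56 ± 0.19 log2 units (adjusted p = 5.32e-07). Il18 had 4.73, 2.68 and 3.77 TPM at D0 and 41, 27.9 and 30.4 TPM at D2. Il18 rose by 2.86 ± 0.40 log2 units (adjusted p = 0.00035). The neutrophil chemokine Cxcl5 had 119, 135 and 130.1 TPM at D0 and 13.3, 13.4 and 14 TPM at D2. Cxcl5 fell by 3.14 ± 0.11 log2 units (adjusted p = 4.57e-08). Ccl7, which attracts monocytes, had 344, 319 and 342 TPM at D0 and 54.5, 44 and 63.5 TPM at D2. Ccl7 fell by 2.62 ± 0.19 log2 units (adjusted p = 4.04e-06). Among interferon response and antigen presentation genes 20 of 41 members tested rose and 0 fell, with a median log2 fold change of 0.63. Under quantile normalization 14 rose, and with no filter on low values 1 fell. With a filter of mean TPM of at least 5, which tests fewer members, 9 rose. Gbp2, a guanylate-binding protein, had 4.4, 3.7 and 4.73 TPM at D0 and 18.5, 19.7 and 17.4 TPM at D2. Gbp2 rose by 1.89 ± 0.14 log2 units (adjusted p = 3.7e-06). Ly6c2, a surface antigen outside the interferon list, had 6.21, 4.35 and 4.96 TPM at D0 and 228, 229 and 292 TPM at D2. Ly6c2 rose by 5.34 ± 0.28 log2 units (adjusted p = 5.37e-07). This was the largest rise among single-transcript genes outside the contractile and cell cycle lists. Of 14 leukocyte markers, Ptprc, Adgre1, Itgam, Tyrobp, Cd52 and Aif1 stayed under 0.1 TPM in every library, and the list summed to 45.3 to 47.6 TPM at D0 and 26.8 to 33.7 TPM at D2. Nearly all of that sum was Cd14, a receptor for bacterial lipopolysaccharide, which had 42.9, 42.8 and 46.6 TPM at D0 and 31.3, 26.3 and 25.2 TPM at D2. Cd14 fell by 0.66 ± 0.16 log2 units (adjusted p = 0.00924).

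Other single genes had large changes. Apobec2, a muscle protein of the cytidine deaminase family, had 0.919, 0.979 and 0.229 TPM at D0 and 34.3, 35 and 31.8 TPM at D2. Apobec2 rose by 4.37 ± 0.19 log2 units (adjusted p = 1.43e-07). Cav3, the muscle caveolin, was listed at 0 in 2 D0 libraries and had 0, 0 and 0.834 TPM at D0 and 23.1, 21.9 and 23.8 TPM at D2 (adjusted p = 9.96e-07). Fndc5, the precursor of irisin, had 1.13, 0.788 and 0.873 TPM at D0 and 20.8, 22.3 and 20.5 TPM at D2. Fndc5 rose by 3.52 ± 0.15 log2 units (adjusted p = 1.09e-07). R3hdml was listed at 0 in all D0 libraries and had 11.2, 10.9 and 12.9 TPM at D2. Mir6923, a hairpin within the span of Myh3 and on its strand, had 17.8 to 23.1 TPM at D2 and under 0.4 TPM at D0, and reads of the 2 genes cannot be told apart there. Prl2c3, a proliferin, had 2206, 2380 and 2134 TPM at D0 and 47.5, 100.2 and 107 TPM at D2. Prl2c3 fell by 4.79 ± 0.26 log2 units (adjusted p = 7.35e-07). Near-identical copies of the gene make its level uncertain. The neurofilament light chain Nefl, better known from neurons, had 905, 901 and 884 TPM at D0 and 211, 199 and 214 TPM at D2. Nefl fell by 2.10 ± 0.10 log2 units (adjusted p = 3.31e-07). Of 17 endothelial and neural markers 9 stayed under 0.1 TPM, among them Pecam1, Rbfox3 and Gfap. Osteoblast markers gave no common direction: of 14, 4 were tested and 1, Phex, fell, with 27.7, 31.2 and 32 TPM at D0 and 4.62, 4.31 and 4.14 TPM at D2. Phex fell by 2.55 ± 0.13 log2 units (adjusted p = 4.49e-07). Bglap and Ibsp were listed at 0 in all 6 libraries.

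Of 625 long noncoding genes tested, 129 were higher (20.6%) and 57 lower (9.12%), against 21.9% and 14.2% of 12035 protein-coding genes. Named here after their values were seen, 5430431A17Rik had 2.71, 4.46 and 1.63 TPM at D0 and 92.5, 107 and 117 TPM at D2. 5430431A17Rik rose by 4.81 ± 0.25 log2 units (adjusted p = 4.65e-07). Gm28653 had 1.88, 2 and 1.65 TPM at D0 and 37.1, 41.3 and 35.9 TPM at D2. Gm28653 rose by 3.78 ± 0.15 log2 units (adjusted p = 8.38e-08). Dancr had 39.2, 31.2 and 16.1 TPM at D0 and 0.905, 0.529 and 0.577 TPM at D2. Dancr fell by 4.08 ± 0.60 log2 units (adjusted p = 0.000533).

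In the cells given siKctd10, 4485 of the 4636 called genes had a change of the same sign. That number does not speak of the size of the change, and its counterpart over all genes tested is not given here. The change from D0 to D2 differed between the arms past the threshold for 97 genes (0.742%), 83 of them among the called genes. Without replicate 3 of siKctd10 at both days that count was 63. Of the 97 genes, 40 were still past the threshold in that fit, and all 97 kept their sign. The libraries left out stood apart from the other libraries of their groups (-42.4 on the second principal component at both days, against -20.4 to -1.1). Ccn2, a matricellular target of YAP, rose by 1.40 on the log2 scale in siControl and had a log2 fold change of -0.16 in siKctd10 (difference -1.56 ± 0.11 SE, adjusted p = 0.000709). Dpt, a matrix protein, rose by 2.42 in siControl and had a log2 fold change of 0.28 in siKctd10 (difference -2.15 ± 0.19, adjusted p = 0.0019). Sfrp2 went further in siKctd10, 3.41 against 1.78 (difference 1.63 ± 0.16, adjusted p = 0.00348). Igfbp5 and H19, from the growth factor genes above, rose less in siKctd10, with differences of -0.75 ± 0.09 and -0.93 ± 0.12. Without replicate 3 of siKctd10 the differences of Ccn2, Dpt, Sfrp2 and Igfbp5 passed the threshold (limma, adjusted p = 0.00284, 0.0137, 0.0136 and 0.0271), and that of H19, at -0.90 ± 0.14, did not (adjusted p = 0.0521).

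**Figure D5:**
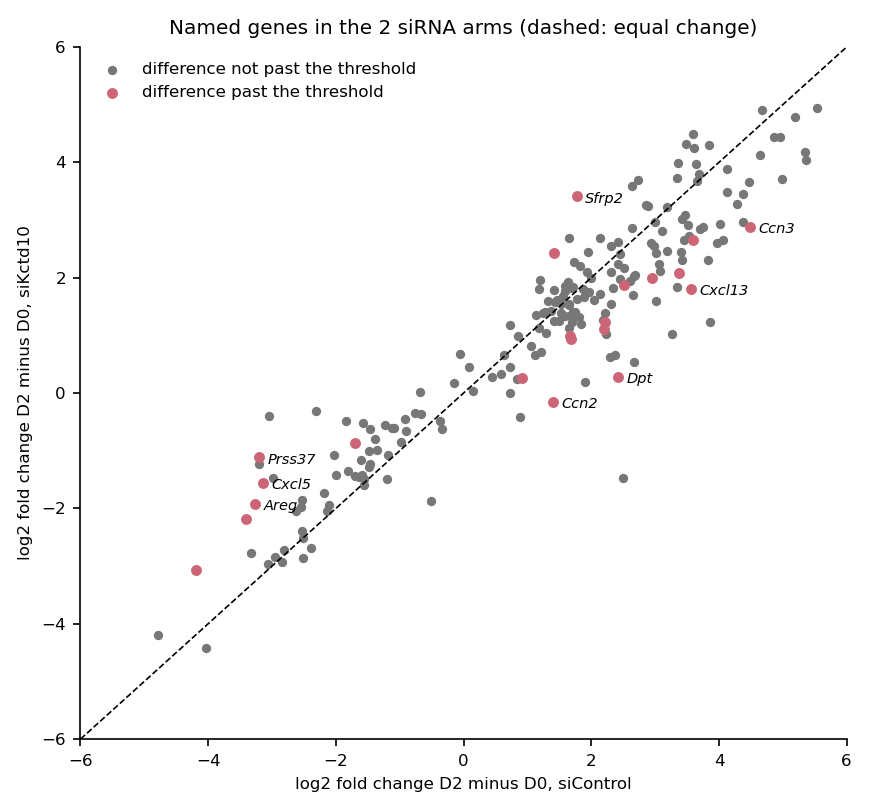
Log2 fold change from D0 to D2 of the named genes in siControl (horizontal) and siKctd10 (vertical), with a dashed line of equal change and, in red, the genes whose difference between the arms passed the threshold. Sfrp2 lies above the line, and Ccn2, Dpt, Ccn3 and Cxcl13 lie below it.

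Values are less certain for genes with several or overlapping transcripts, whose estimates can jump between libraries. Among the genes whose library values or their range are given these are Adamts15, Adamts4, Aldh1l2, Atp2a1, Bhlhe40, Ccn2, Cdh13, Cdkn1a, Cdkn1c, Chrd, Chrng, Ckm, Col3a1, Ctsf, Ctso, Dancr, Des, Dkc1, Fdft1, Fosl1, Fst, Gadd45a, Gbp2, Gm28653, H19, Igf1, Igf1r, Igf2, Igfbp5, Il18, Itga10, Itga4, Kctd10, Lama2, Map1lc3a, Mbnl3, Mef2c, Mest, Mxi1, Myc, Ncl, Nkd2, Nop56, Notch3, Pi16, Porcn, Postn, Pparg, Rb1, Rgma, Scd1, Selenop, Sema3c, Serping1, Sfrp2, Shmt1, Slc40a1, Smarcd3, Sox8, Trim72, Txnip, Ulk1 and Vgll3.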

How the data were processed

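Poly(A) RNA of C2C12 cells was sequenced in 12 libraries, 3 in each of 4 groups taken from the sample titles. Per the file headers, the authors estimated transcript coverage, FPKM and TPM with StringTie 1.3.3b; HISAT, SAMtools, DESeq2, mm10 and another StringTie version, 1.1.3, stand in the submitters' processing notes, so the version is not settled. The deposited TPM of 63759 transcripts was matched to GENCODE genes on mm10 by identical introns (42608) or at least 50% exon overlap (13473); 7678 were unmatched and held 4.13 to 4.63% of TPM in the siControl libraries. Depth was estimated from the deposited coverage with read pairs of 202 bases, since no counts per gene were used here.

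Gene sums were fitted as log2(TPM + 1) with limma 3.58.1 in R 4.3.3 (4 group means over 12 libraries, 8 residual degrees of freedom, mean-variance trend, robust), two-sided, with Benjamini-Hochberg adjustment over 13070 genes and a threshold of 0.05. That scale understates changes of low genes. Of the kept genes, 3410 have a single transcript sharing no exon base with another, and 533 are listed at 0 in some siControl library. Estimated read pairs of replicate libraries of a day differed by more than counting noise (chi-square of 56.7 to 69.8 per gene), a spread to which the estimation of transcripts can add, and each library was counted as 1 replicate.

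Gene lists and members were chosen with earlier results of these data known, and lists carry no test. Named genes were the 20 largest rises and 20 largest falls among single-transcript genes past the threshold with no overlap and a mean of at least 5 TPM in the higher group (outside sarcomere, cell cycle and ribosomal protein lists, predicted models and pseudogenes), up to 4 called members of each other list with the largest change, and a set of regulators; not all are described, and 3 genes that met this rule are not reported here. Promoter windows come from RefSeq (GRCm38.p6). Alternatives covered scaling, pseudocount, filters, the libraries fitted, voom on estimated read pairs, a replicate block and leaving out each siControl library.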

Additional observations from a re-analysis of the deposited data

Results flagged for a closer look

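The change from D0 to D2 differed between the siRNA arms (interaction of day and siRNA, limma, adjusted p under 0.05) for 21 of the named genes. Values are the log2 change in siKctd10 minus that in siControl. Genes that rose in siControl and had a smaller change in siKctd10 were Dpt (-2.15), Cxcl13 (-1.75), Ccn3 (-1.6), Ccn2 (-1.56), Itga4 (-1.29), Sntb1 (-1.08), Ldb3 (-0.99), Srpk3 (-0.95), H19 (-0.93), Igfbp5 (-0.75), Scd1 (-0.69), Fdft1 (-0.66) and Pmaip1 (-0.65). Sfrp2 (1.63) and Col12a1 (1.01) rose more in siKctd10. Genes that fell in siControl and fell less in siKctd10 were Prss37 (2.08), Cxcl5 (1.59), Areg (1.35), Ngfr (1.21), Itgb7 (1.11) and Hspd1 (0.83). Without replicate 3 of siKctd10 at both days, an alternative chosen after seeing the data, 8 of the 21 passed the threshold and all 21 kept their sign.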

How the results depend on the processing

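Of 213 named genes 204 were called, none of these changed direction under any of the 16 alternatives, and 185 kept their call in all of them. Calls were lost for 19 genes, 6 of them only when a siControl library was left out. Leaving out each siControl library in turn gave 2362 to 2558 genes higher and 1484 to 1593 lower, and 52 to 73 genes that differed between the arms. That last count was 62 with a pseudocount of 0.1, 167 with a pseudocount of 5 and 63 without replicate 3 of siKctd10 at both days. Of those 63 genes, 40 were among the 97 of the fit reported. Testing only the 3410 single-transcript genes gave 928 higher and 724 lower. Of these calls 56.2% were higher, against 60.5% in the fit over 13070 genes. Signs reversed for 3 genes that were not called: Kctd10 (-0.006 with median-ratio scaling, -0.016 with voom), and, over the fits that left out 1 siControl library, Mbnl1 (-0.327 to 0.125, positive at 0.021 and 0.125) and Pkm (-0.666 to 0.02). The cause was not tested.

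The replicate numbers did not pair the siControl libraries (correlations of same-numbered deviations 0.005, 0.008 and 0.016). In siKctd10 these correlations were 0.091, 0.046 and 0.202, the last for replicate 3. With the number as a replicate block, 2770 genes were higher and 1852 lower, and 42 differed between the arms. With an estimated 12.51 read pairs (in units of 1000000) in the shallowest siControl library, genes near 1 TPM rest on few reads, and no counting interval was computed for single genes.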
